A study of Arabidopsis thaliana with 20 samples.

Results

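Protein occupancy along the plastid genome was examined in wild-type Arabidopsis thaliana seedlings of the Col-0 strain, from 3 IPOD libraries and 3 input libraries out of 20 libraries in the series. IPOD, in vivo protein occupancy display, recovers the DNA that crosslinking has tied to protein of any kind, and input is the plastid DNA before that recovery. The 6 libraries were chosen by their titles alone. The seedlings were 4 days old, grown on plates of 0.5 strength MS medium in continuous light of 100 umol per square metre and second, pooled at 50 per sample, and held in 4% formaldehyde for 4 h before the chloroplasts were enriched. The same study holds 6 libraries of ptac3 seedlings, treated alike and affected in a protein of the plastid transcription machinery, and 8 libraries of leaves from Col-0 plants of 14 days. The ptac3 libraries carry wild type as their genotype entry and were grouped by title. A pool of seedlings gives an average over cells, plastids and genome copies, so that more copies with bound protein and more protein per copy cannot be told apart.

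The labels do not say whether the 3 libraries of a group came from separate cultures, so the p-values measure the spread between these samples, which may be technical. The labels of the third Col-0 IPOD library disagree: its title gives Col0 and its cell line entry gives ptac3. Over 2564 bins of 50 bp, the log2 depth of this library had a Pearson's r of 0.965 and 0.972 with the other Col-0 IPOD libraries and of 0.900 to 0.958 with the ptac3 IPOD libraries. Its r with the Col-0 input libraries was 0.938 to 0.962. Between genotypes, r reached 0.973, for Col-0 input library 3 and ptac3 input library 2, so r does not settle the genotype. The third IPOD library was kept with Col-0 by its title, and the main results are also given without it. On average over all positions, 113, 220 and 138 reads covered a base in the IPOD libraries and 192, 441 and 213 in the input libraries. Over the positions kept, with 1 copy of the inverted repeat, the means were 99.3, 195 and 123 in IPOD and 170, 402 and 191 in input. Depth was divided by this second mean, called the library mean below. Each ratio is therefore relative to the average kept position of the plastid genome and says nothing of the absolute amount of protein on it.

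Plastid DNA is packed with proteins and RNA into nucleoids, which are attached to membranes. It is transcribed by a plastid-encoded RNA polymerase of bacterial type, which serves photosynthesis genes and many tRNA and rRNA genes, and by a nuclear-encoded polymerase of phage type, which serves housekeeping genes such as rpoB and accD. The tRNA genes are short, are scattered over the circle, and lie mostly between protein-coding genes. The rRNA genes form 1 operon in each copy of the inverted repeat.

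IPOD signal in Col-0 seedlings stood above input mainly at and beside tRNA genes, ahead of the rRNA operon, and at a few spots between genes. In limma's test with Benjamini-Hochberg adjustment, 51 of 2564 bins were enriched (1.99% of the bins) and 31 depleted (1.21%) at an adjusted p under 0.05. Of the 51 enriched bins, 31 lay between genes, 11 in tRNA genes without an intron, 8 in tRNA genes with an intron, 1 in an rRNA gene and 0 in protein-coding genes, which hold 1558 of the 2564 bins. Bins assigned to tRNA genes without an intron were called enriched in 11 of 39 cases (28.2%), against 31 of 781 bins between genes (3.97%). Within 200 bp of a tRNA gene lay 43 of the 51 enriched bins (84.3%), 1 of the 31 depleted bins (3.23%) and 387 of all 2564 bins (15.1%). Without the third IPOD library there were 49 enriched and 11 depleted bins, of which 42 and 9 were among those called with it. Other single libraries moved the enriched count more: it was 17 and 6 without IPOD library 1 or 2, and 22, 8 and 23 without input library 1, 2 or 3. The depleted count was then 1 and 0, and 3, 0 and 4; in limma's fit without IPOD library 2 or input library 2, 310 and 187 bins were lower at an unadjusted p under 0.05. Among ptac3 libraries, which share the fit, leaving out IPOD library 2 gave 33 and 4, input library 1 gave 84 and 60, and input library 2 gave 34 and 8. Of the 51 enriched bins, 6 were called whichever Col-0 library was left out. With a replicate block for the ptac3 libraries, whose equal numbers deviated together, 229 bins were enriched and 267 depleted. The ratio of IPOD to input over all bins had a median of -0.072 on the log2 scale. With every library centred on its own median bin, the calls were 82 enriched and 14 depleted bins, and the share of enriched bins among them was 85.4% in place of 62.2%.

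Joined across gaps of 1 bin, the enriched bins formed 20 regions that covered 2550 bp, and 8 of them were a single bin. A tRNA gene was touched by 12 regions, 17 regions lay within 200 bp of one, and 0 touched a protein-coding gene. Positions are on TAIR10. The longest, 47401 to 47900, began at the edge of trnL (ArthCt101), a leucine tRNA gene with an intron, and ran into the spacer towards trnF. Its depth was 1.32, 1.32 and 1.11 times the library mean in the IPOD libraries, against 0.698, 0.682 and 0.674 in the input libraries. The groups did not overlap in any of its 10 bins, and the mean log2 ratio was 0.77. Bins were called on these same libraries, so a lack of overlap in called regions is largely built in. Over all bins, 13.1% had the 3 IPOD libraries above the 3 inputs. The bin with the highest ratio of the genome, 100851 to 100900, lay between trnV (Arthct121) and rrn16S at 1.28, in a region from 100751 to 101050 whose mean was 0.85. Depth in that region was 2.98, 2.91 and 2.31 times the mean in IPOD and 1.41, 1.37 and 1.53 in input, again without overlap.

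Several regions of 150 bp lay over a tRNA gene of up to 100 bp and the spacer beside it. The gene took up 63 to 80 bp of each, which was the whole gene except for trnP, with 63 of its 74 bp. They were 6601 to 6750 over trnQ with a mean log2 ratio of 0.92, 114201 to 114350 over trnL (Arthct122) with 0.87, 52001 to 52150 over trnM with 0.73, 66501 to 66650 over trnP with 0.72, 31301 to 31450 over trnT with 0.69 and 36451 to 36600 over trnG (ArthCt116) with 0.67. In tRNA genes with an intron the enriched bins took up only some of the gene. The gene trnV (ArthCt103) had 2 enriched of 13 bins, trnG (ArthCt092) 1 of 16, trnA 3 of 18 and trnL (ArthCt101) 2 of 12, and trnK, whose intron holds matK, had 0 of 53. Measured where the ratio was 0.5 of its summit, the enriched regions had a median width of 200 bp. In 17 of the 20 regions the third pair of libraries had the smallest ratio of the 3. The median ratio of the regions was 0.80, 0.84 and 0.50 in pairs 1 to 3, and each of the 20 was above 0 in 3 of 3 pairs. The regions were called on these same libraries, so that sign is largely built in. Of all 2564 bins, 491 were above 0 in 3 of 3 pairs.

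**Figure D1:**
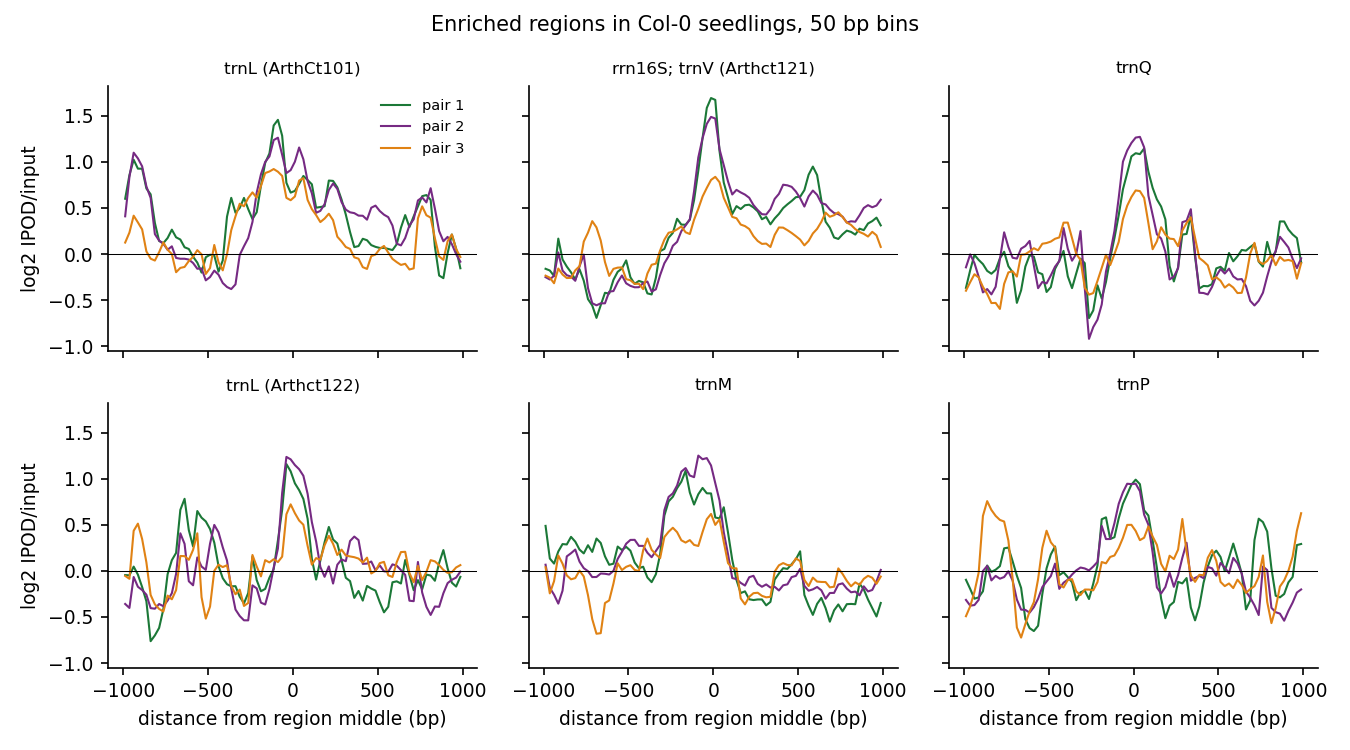
The 6 top enriched regions by summed change, as log2 IPOD/input (y axis) in 50 bp bins against the distance in bp from the middle of the region (x axis), with 1 line per pair of Col-0 libraries of equal number. Panels are headed by the genes the region touches. Each region is a narrow peak in 3 of 3 pairs, and pair 3 is the lowest at the summit.

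Some enriched bins stood apart from tRNA genes, in spacers next to photosynthesis genes. The bin 54751 to 54800 lay between atpB and rbcL, which encode a subunit of ATP synthase and the large subunit of Rubisco and are transcribed away from each other. Depth in it was 0.809, 0.994 and 0.819 times the library mean in IPOD and 0.446, 0.355 and 0.401 in input. The log2 ratio was 0.98, with an adjusted p of 0.0079 by limma, and up to 0.069 with 1 Col-0 library left out. The body of rbcL did not show it: its depth was 1.71, 1.63 and 1.69 in IPOD and 1.72, 1.51 and 1.72 in input, and its log2 ratio was 0.018 ± 0.067 (SD, n = 3 pairs), with an adjusted p of 0.90 by limma. The groups overlapped over the gene and not over the spacer bin.

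The bin 42051 to 42100 lay between psaA, the gene of a photosystem I core subunit that heads its transcription unit, and ycf3. Its depth was 1.09, 1.03 and 0.959 in IPOD and 0.650, 0.541 and 0.475 in input, with a log2 ratio of 0.80 and an adjusted p of 0.038 by limma, while psaA itself was at -0.11. With any 1 of the 6 Col-0 libraries left out this bin was not called, with adjusted p up to 0.19. The bin 64401 to 64450 lay beside psbE, the gene of a cytochrome b559 subunit, at 0.56 with an adjusted p of 0.047 by limma, and it was called in 1 of the 6 fits with a Col-0 library left out. Next to psbA, the gene of the photosystem II reaction centre protein D1, the bin 1501 to 1550 reached 0.82. Unlike the bins above, it lay within 200 bp of a tRNA gene, trnK. Its ratio was 1.03, 1.10 and 0.32 in pairs 1 to 3, and its adjusted p of 0.066 by limma missed the threshold.

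For comparison, the highest bin in the spacers up to 500 bp from either edge was taken for each of the 79 protein-coding genes, leaving out bins with tRNA sequence. These values had a median of 0.30, with 0.12 at the lower quartile and 0.49 at the upper. Neighbouring genes share spacers, so the 79 genes gave 60 different bins, of which 10 were called enriched. Of these 10, 7 lay within 200 bp of a tRNA gene. With spacer bins that near to a tRNA gene left out, 75 genes gave 56 different bins with a median of 0.24 over the genes, and 3 were called. Among housekeeping genes, with spacer bins near tRNA genes kept, the highest bin was 0.55 for accD, the gene of an acetyl-CoA carboxylase subunit. It was 0.47 for clpP, 0.45 for ycf2, 0.18 for rpoB, 0.00 for rpoC2 and -0.21 for rpoC1. The rpo genes encode RNA polymerase subunits. Of these bins, that of ycf2 alone was called, with an adjusted p of 0.039 by limma. It lay within 200 bp of a tRNA gene, trnI (ArthCt113). A highest value among several bins is high by construction, and these genes were picked with the values in view.

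Among whole genes, 8 of 112 were higher in IPOD (7.14% of the genes) and 4 lower (3.57%), by limma at an adjusted p under 0.05. The 8 were all tRNA genes, out of 30, and the 4 were all protein-coding genes, out of 79. Without IPOD library 1 or 2, or input library 2 or 3, 4 genes were higher and 0 lower. Without input library 1, 6 were higher and 0 lower, and without IPOD library 3, 7 were higher and 2 lower. Where limma called 0 lower genes, 6 to 12 had an unadjusted p under 0.05. The replicate block for ptac3 gave 20 higher and 17 lower. The gene trnQ, for glutamine tRNA, had a depth of 4.73, 4.59 and 3.13 times the library mean in IPOD and of 2.37, 1.99 and 2.08 in input. Its log2 ratio was 0.90 ± 0.30 (SD, n = 3 pairs). The lowest IPOD library, the third, was still above the highest input library. The gene trnT, for threonine tRNA, had 1.54, 1.76 and 1.39 in IPOD and 0.927, 0.915 and 0.913 in input, a log2 ratio of 0.71 ± 0.16. The gene trnM, for methionine tRNA, had 0.898, 1.10 and 0.937 in IPOD and, below the average of the genome, 0.545, 0.531 and 0.611 in input. The groups overlapped for neither gene, and trnM was called like trnQ at a much lower input depth. Genes were called on these same libraries, so a lack of overlap in called genes is largely built in. Over all 112 genes, 19.6% had the 3 IPOD libraries above the 3 inputs.

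The gene trnG (ArthCt116), for glycine tRNA, had 1.997, 1.811 and 1.622 in IPOD and 1.14, 0.981 and 1.10 in input, with a log2 ratio of 0.70 ± 0.16. For trnL (Arthct122), for leucine tRNA, the values were 4.09, 3.48 and 2.46 in IPOD and 2.18, 1.57 and 1.63 in input, a log2 ratio of 0.85 ± 0.27. For trnP, for proline tRNA, they were 3.90, 3.59 and 2.52 in IPOD and 2.22, 1.89 and 1.85 in input, a log2 ratio of 0.70 ± 0.25. The groups did not overlap for any of these 3 genes, although the third IPOD library came close to input 1 in trnL (Arthct122) and trnP. The changes of trnV (Arthct121), for valine tRNA, at 0.31 ± 0.054 and trnY, for tyrosine tRNA, at 0.24 ± 0.075 were smaller. Their adjusted p was 0.043 and 0.044 by limma, in an unpaired fit that does not use the spread between pairs. Without the third IPOD library it was 0.070 and 0.058 by limma, so neither was then called. Neither was called with any other Col-0 library left out. The genes trnL (Arthct122) and trnP were not called without IPOD library 1 or 2 or input library 2 or 3, with adjusted p up to 0.11 for trnP by limma. Over the alternatives tried, trnQ, trnT, trnM and trnG (ArthCt116) had adjusted p of at most 0.014, 0.0055, 0.0089 and 0.012 by limma.

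**Figure D2:**
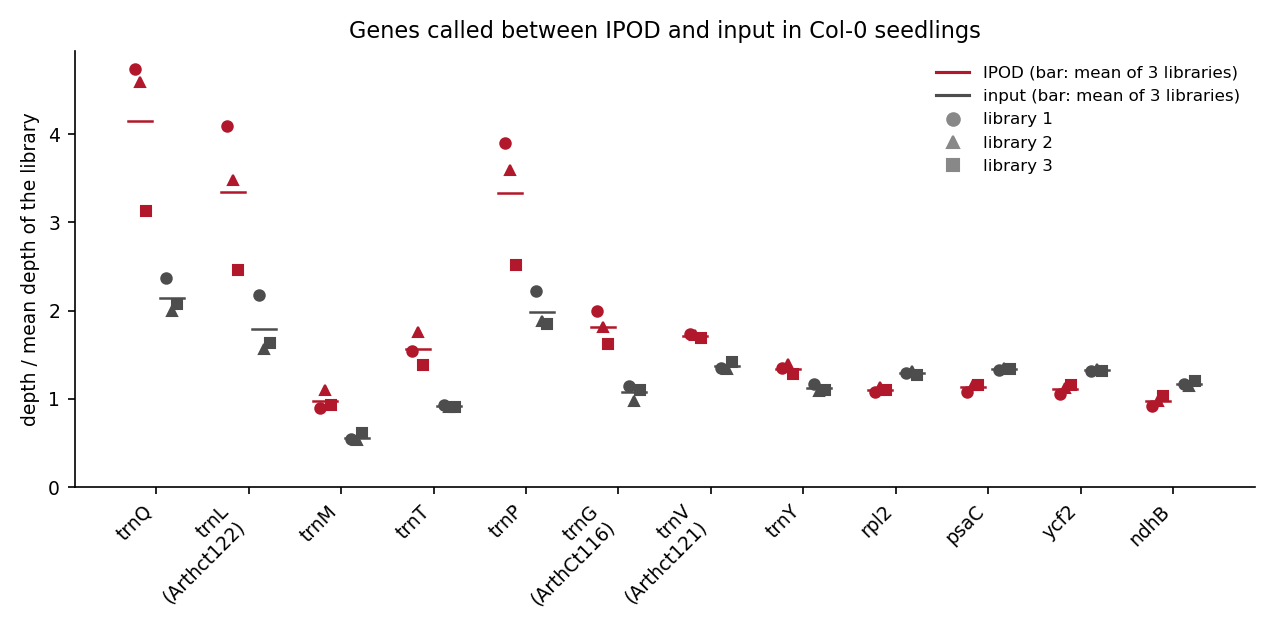
Depth of the 12 genes called between IPOD (red, left of each pair) and input (grey, right), as a multiple of the library's mean depth (y axis); each point is 1 of 3 libraries and each bar their mean. For the 8 tRNA genes on the left, the 3 IPOD libraries lie above the 3 input libraries. For the 4 protein-coding genes on the right they lie below. The genes were called on these same libraries.

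Enrichment was uneven among the tRNA genes. The log2 ratio of the 30 ran from -0.15 for trnW to 0.90 for trnQ, with a median of 0.23, against a median of -0.046 over all 112 genes. The ratio was above 0 for 27 of the 30, against 43 of all 112 genes. For 16 of the 30 the 3 IPOD libraries were above the 3 input libraries, where 19.6% of all genes were. The arginine tRNA gene trnR (ArthCt127) stood at 5.62, 4.57 and 5.15 times the mean in IPOD and at 5.52, 3.74 and 4.85 in input, and the groups overlapped, with a log2 ratio of 0.13 ± 0.13 (SD, n = 3 pairs). The tryptophan gene trnW and the proline gene trnP are neighbours, and trnW had 1.70, 1.79 and 1.73 in IPOD and 2.03, 1.75 and 2.04 in input.

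Both kinds of library peaked over tRNA genes, and IPOD did so more. Averaged over the 24 tRNA genes without an intron, log2 depth over the gene minus that of the flanks 200 to 400 bp away was 1.49, 1.45 and 1.24 in the IPOD libraries and 1.18, 1.01 and 1.07 in the input libraries. The difference between the groups was 0.31, and 0.32, 0.43 and 0.17 in pairs 1 to 3. The groups did not overlap. An exact two-sided permutation test of 3 against 3 libraries gave p = 0.10, the smallest that this design allows. Without the third pair the difference was 0.37. Over all 3 pairs, 21 of the 24 genes had a higher ratio over the gene than over its flanks. The averaged ratio was 0.34 at the middle of the gene and 0.11 at 237 bp to the higher-numbered side, and 0.016 at the same distance to the lower-numbered side. Since the gene table used gives no strand, these sides are not upstream and downstream.

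**Figure D3:**
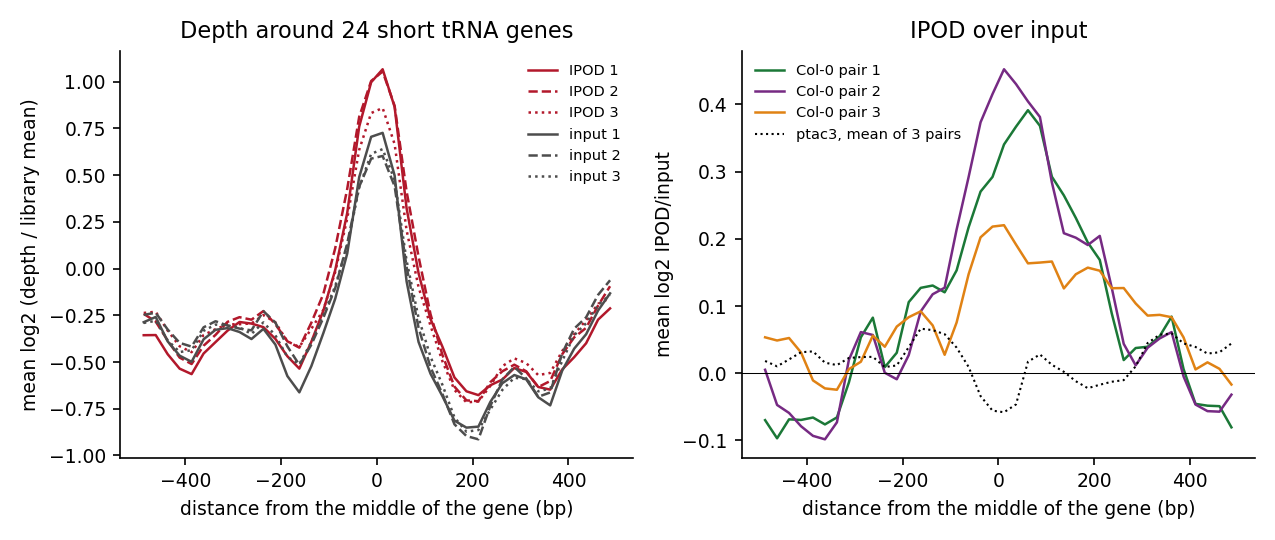
Mean profile around the 24 tRNA genes without an intron, against the distance in bp from the middle of the gene. Left: log2 depth over the library mean in 3 IPOD libraries (red) and 3 input libraries (grey). Right: log2 IPOD/input in the 3 Col-0 pairs and, dotted, the mean of the 3 ptac3 pairs. Input libraries peak over the genes too, the IPOD peak is higher in each Col-0 pair, and the ptac3 mean is -0.058 at the middle of the gene.

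IPOD depth was above input along the rRNA genes, and most of all ahead of rrn16S, where bins were called. The gene rrn16S, for the RNA of the small ribosomal subunit, had 4.07, 3.52 and 3.47 times the mean depth in IPOD and 3.15, 2.37 and 2.90 in input, a log2 ratio of 0.39 ± 0.15 (SD, n = 3 pairs). The gene rrn23S, for the RNA of the large subunit, had 4.42, 3.83 and 3.98 in IPOD and 3.46, 2.63 and 3.32 in input, a log2 ratio of 0.37 ± 0.14. The groups did not overlap for either gene, but limma's adjusted p was 0.20 and 0.22 in the fit of all 12 seedling libraries, so neither was called. With the 6 Col-0 libraries alone it was 0.047 for both, and with the replicate block for ptac3 it was 0.016 for both. The ratio was above 0 in 88 of 88 bins of the 3 rRNA genes in the set used, against 952 of all 2564 bins. In 70 of the 88 the 3 IPOD libraries were above the 3 inputs, where 13.1% of all bins were. Of these 88 bins, 1 was called enriched in the shared fit, against 51 of all 2564 bins. With the Col-0 libraries alone 55 were, against 194 of all 2564 bins. Neighbouring bins of an operon are not independent. The share of depth over rRNA genes varied between input libraries, and the genotypes overlapped: it was 12.02%, 8.24% and 7.78% in ptac3 input libraries 1 to 3 and 11.4%, 8.68% and 10.9% in Col-0 input libraries 1 to 3.

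Along the operon the ratio was highest in the spacer between trnV (Arthct121) and rrn16S, at 1.02 ± 0.32 (SD, n = 3 pairs), with 1.24, 1.18 and 0.65 in pairs 1 to 3. From rrn16S to rrn4.5S, genes and spacers alike were at 0.29 to 0.43. A second, narrow rise lay at the end of trnA that faces rrn23S, where the region 104451 to 104550 had a mean of 0.75. The gene set used lists rrn16S, rrn23S and rrn4.5S but no rrn5S, so the whole stretch from rrn4.5S to trnR (ArthCt127) was counted as spacer. Beyond rrn4.5S the ratio was 0.17 ± 0.16 up to trnR (ArthCt127) and 0.030 ± 0.14 between trnR (ArthCt127) and trnN. The last value was -0.13, 0.081 and 0.13 in pairs 1 to 3. These pairs match libraries by number only, and no test against 0 was made.

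**Figure D4:**
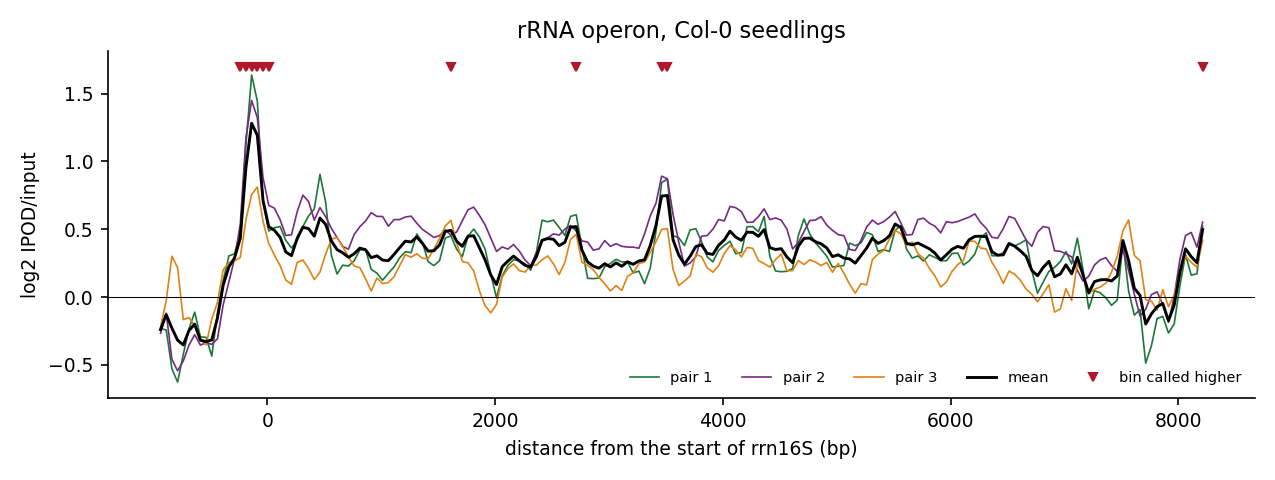
Log2 IPOD/input (y axis) in 50 bp bins along the rRNA operon of the first repeat copy, against the distance in bp from the start of rrn16S (x axis). Thin lines are the 3 Col-0 pairs, the black line is the fitted mean, and triangles mark bins called enriched. The peak of 1.28 lies just before rrn16S, and from rrn16S to rrn4.5S the bins run from 0.092 to 0.75, with 5 called.

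Protein-coding genes as a class lay slightly below the genome average in IPOD. Their median log2 ratio was -0.095, with 66 of 79 below 0, against 69 of all 112 genes. For 27 of the 79 the 3 IPOD libraries were below the 3 inputs, where 24.1% of all genes were. Of the 79, 0 were called higher and 4 lower. The 4 lower genes were ndhB, a subunit gene of the NDH complex, at -0.25 ± 0.053 (SD, n = 3 pairs), ycf2, a very long gene tied to protein import, at -0.24 ± 0.064, psaC, the gene of an iron-sulphur subunit of photosystem I, at -0.24 ± 0.040, and rpl2, a large ribosomal subunit gene, at -0.22 ± 0.025. Depth of psaC was 1.08, 1.16 and 1.16 times the mean in IPOD and 1.33, 1.36 and 1.34 in input, and that of ycf2 was 1.06, 1.12 and 1.16 in IPOD and 1.32, 1.34 and 1.32 in input. These are small shifts, and the groups did not overlap for either gene. With libraries centred on their medians all 4 kept their sign and had adjusted p of 0.31 to 0.32 by limma, and without the third IPOD library 2 of them, ndhB and ycf2, were still called. With any other Col-0 library left out none of the 4 was called.

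Classes of protein-coding genes differed little. Class medians were -0.16 for 6 ATP synthase genes, -0.16 for 4 plastid RNA polymerase genes, -0.11 for 12 genes of the small ribosomal subunit, -0.078 for 7 photosystem I genes, -0.056 for 15 photosystem II genes, -0.054 for 9 genes of the large ribosomal subunit, -0.054 for 6 cytochrome b6f genes and -0.039 for 11 NDH genes. With centred libraries the medians of photosystem II, the large ribosomal subunit, cytochrome b6f and NDH genes turned to 0.021, 0.023, 0.023 and 0.039, while the ATP synthase, RNA polymerase, small ribosomal subunit and photosystem I medians kept a sign below 0, the last at -0.00082. The median of the 6 genes listed as served by the nuclear-encoded polymerase was -0.16 and that of the 9 listed for the plastid-encoded polymerase was -0.080, and ratios of both lists overlapped. Within the second list psbA was the highest: its depth was 1.33, 1.38 and 1.35 in IPOD and 1.21, 1.22 and 1.19 in input. Its log2 ratio of 0.15 ± 0.020 was above 0 in 3 of 3 pairs and the groups did not overlap, with an adjusted p of 0.13 by limma, and of 0.029 with the replicate block for ptac3.

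**Figure D5:**
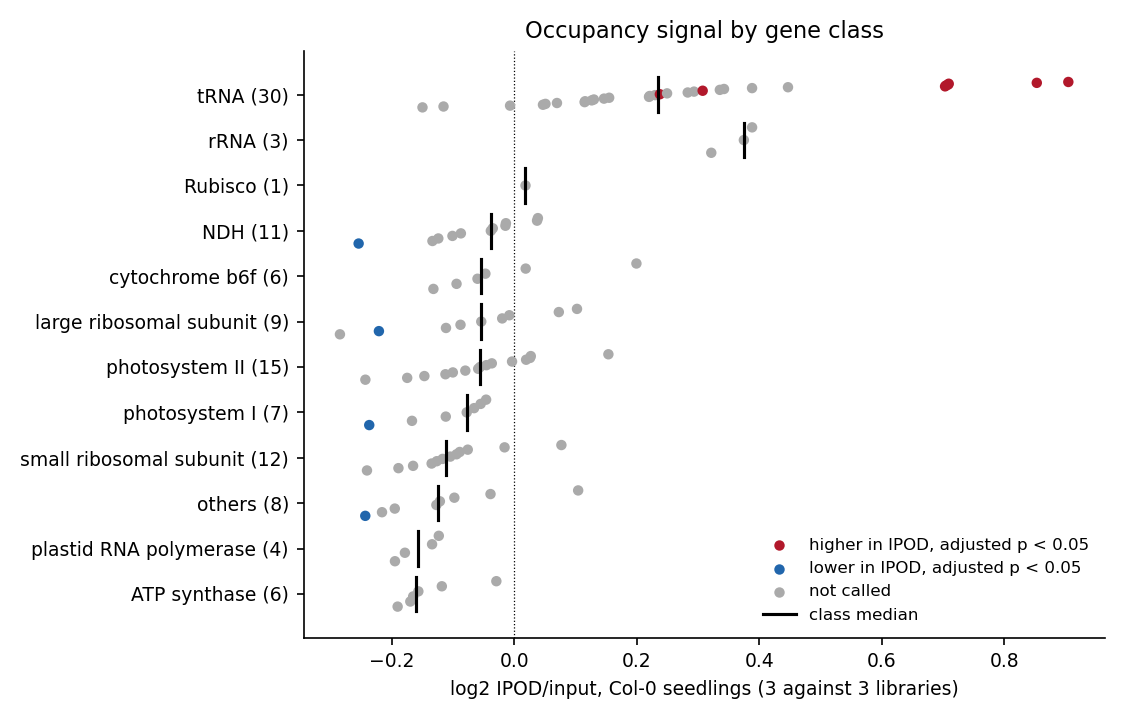
Log2 IPOD/input (x axis) of 112 genes in Col-0 seedlings by class (y axis, number of genes in brackets). Each point is a gene, red if called higher and blue if called lower, and the black bar is the class median. The tRNA and rRNA medians, 0.23 and 0.37, lie right of the other classes, and 8 tRNA genes are called higher.

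The depleted bins formed 17 regions, of which 10 touched a protein-coding gene and 0 a tRNA gene. The one with the largest summed change, 97001 to 97400 at the edge of ndhB, had a depth of 0.911, 1.16 and 1.12 times the mean in IPOD and of 1.46, 1.60 and 1.60 in input, without overlap. Depleted bins were called on these same libraries, so that lack of overlap is largely built in. Over all bins, 21.4% had the 3 IPOD libraries below the 3 inputs. Other depleted regions lay inside long genes: 89051 to 89200 in ycf2 with a mean log2 ratio of -0.54, 17801 to 17950 in rpoC2 with -0.48, 126401 to 126550 in ycf1 (Arthcp087) with -0.48 and 22551 to 22650 in rpoC1 with -0.51. Of the 31 depleted bins 18 were in protein-coding genes, which hold 60.8% of all bins, so their share among depleted bins was near that of the genome. The spacer between rps7 and trnV (Arthct121), on the far side of trnV (Arthct121) from rrn16S, held 3 depleted single bins, at -0.49, -0.44 and -0.39. A single bin near trnQ, 6401 to 6450, was depleted at -0.64, close to the enriched region over that gene.

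Across 42 protein-coding genes of at least 500 bp, the averaged ratio changed little at the gene edge. It was -0.003 to -0.049 in the 300 bp outside an edge and -0.061 to -0.084 in the 300 bp inside. The ratio also varied with input depth, though weakly: over the 2564 bins, which are not independent, Pearson's r between the log2 ratio and the log2 input depth was -0.13. Input depth is also the divisor of the ratio, so noise in it alone pushes r below 0. The same limit holds for bins grouped by input depth. With the bins split by input depth into 5 groups of like size, from the least input to the most, the median ratio was 0.060, -0.028, -0.11, -0.17 and -0.12. Enriched bins were spread over these groups, with 3, 12, 9, 14 and 13, while 28 of the 31 depleted bins were in the 2 groups with the most input. With this trend removed, 74 bins were enriched, among them the 51 found without its removal, and 25 were depleted, of which 13 were among the 31. For genes the trend was fitted over the 112 genes themselves. The rRNA genes and trnQ have high input, so the fitted trend can take up part of their own ratio. With it removed, the log2 ratios of rrn16S and rrn23S were 0.13 and 0.11, and that of trnQ was 0.71. These values therefore do not tell how much of the rRNA ratio goes with input depth.

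The 3 pairs resembled each other along the genome in part. Pearson's r of the log2 ratio over bins was 0.67 between pairs 1 and 2, 0.54 between pairs 1 and 3 and 0.55 between pairs 2 and 3. The third pair had the flattest profile, with an SD over bins of 0.24, against 0.31 in pair 1 and 0.31 in pair 2, and in ptac3 seedlings the SD was 0.23, 0.14 and 0.19. In pair 3, 48 bins exceeded 0.5, against 131 in pair 1 and 170 in pair 2.

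As a set, the regions enriched in Col-0 seedlings were close to input in ptac3 seedlings. Their mean ratio in ptac3 ran from -0.093 to 0.29 over the 20 regions, with a median of 0.016, against a median of 0.71 in Col-0. The regions were chosen for a high value in Col-0, so a lower value elsewhere is built into this comparison. The depleted bins mostly kept their direction. In ptac3 the mean ratio was above 0 in 2 of the 31 depleted bins and in 28 of the 51 enriched bins, against 56.9% of all bins. The test of the difference itself, ptac3 minus Col-0, called 0 of 2564 bins lower in ptac3 and 0 higher by limma, where an unadjusted p under 0.05 was reached by 95 and 119. Of the 112 genes, limma called 3 lower in ptac3 (2.68%) and 0 higher, where 9 were higher at that unadjusted p. With the replicate block for the ptac3 libraries, 12 genes were lower in ptac3 and 2 higher, and with a block for both genotypes 18 were lower and 14 higher. The 3 were trnQ, with a difference of -1.01 and ratios of -0.048, -0.024 and -0.24 in ptac3 pairs against 0.97, 1.17 and 0.57 in Col-0 pairs, trnT with -0.70 and trnM with -0.70. Their adjusted p was 0.021, 0.016 and 0.024 by limma. Leaving out IPOD library 2 of Col-0 gave 1 lower gene, input library 2 gave 0 (8 at an unadjusted p under 0.05) and IPOD library 3 gave 7. Leaving out IPOD library 1 of ptac3 gave 8 lower genes and 1 higher, and input library 3 of ptac3 gave 1 lower. The ratios of the 2 genotypes did not overlap for trnQ, trnT and trnM. These genes were called on this same difference, so that lack of overlap is largely built in. How many of all 112 genes lack it was not counted.

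Leaf libraries had no part in the choice of the seedling bins, and they share no sample with them. The mean leaf ratio was above 0 in 51 of the 51 bins enriched in Col-0 seedlings, against 823 of all 2564 bins (32.1%), and it was above 0 in 1 of the 31 depleted bins. The median over the 51 bins was 0.89, 1.05, 0.68 and 0.062 in leaf pairs 1 to 4, so the fourth leaf pair hardly departed from input there. Leaves and seedlings differed in age, growth and order of crosslinking, and no test was made between them.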

How the data were processed

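The authors deposited coverage, that is how many reads lie over a base of the plastid genome, in whole numbers, unscaled, with 1 column per library. Coverage was treated as a signal and not as counts of reads. Trimming with Trim Galore 0.4.1, alignment with Bowtie2 and bedtools 2.25.0 are named in the submitters' processing notes, with the TAIR10 build. Strand, the treatment of duplicates and where reads of either repeat copy were placed are not given in the sources used here. The files hold 154477 positions. Those from 128213 on, the second copy of the inverted repeat, were dropped. Genes came from a RefSeq table of TAIR10.1 with 129 plastid genes, and no coordinate of it is printed. Its numbering was checked on the repeat: 11 of 11 genes present in both copies mirror at a sum of positions of 238649, as did depth in the 12 seedling libraries. Kept were 2564 bins (50 bp) and 112 genes with a length of 70 bp or more, counted with their introns; 1 gene with the same interval as another was dropped.

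Depth was divided by the library mean over the kept bins, 10% of the library's median bin was added, and log2 was taken, which understates changes of shallow bins. IPOD and input were compared by limma 3.58.1 (R 4.3.3) with 12 seedling libraries in 1 fit, unpaired, and Benjamini-Hochberg adjustment over all bins or all genes. Equal replicate numbers deviated together in ptac3 but not throughout in Col-0, so blocking ptac3 libraries by number was added as an alternative after seeing the data. An SD over pairs sets libraries of equal number against each other, so in Col-0 it depends on a matching that may not be real. The fit was tested on simulated depths. As the table gives no strand, profiles at gene starts were replaced by profiles at both edges. No genome was used, so no sequence is shown and no correction for base composition was made. Named genes were the called ones, the highest and lowest of each class, and a fixed set of 15 that includes psbA, rbcL, rrn16S and rrn23S; named regions were the 10 enriched and 6 depleted ones with the largest summed change. Single bins beside rbcL, psaA, psbE and psbA were added after their values were seen. The genes, lists and comparisons were chosen with earlier results of these data known.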

Additional observations from a re-analysis of the deposited data

Results flagged for a closer look

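For 3 genes the difference between IPOD and input itself differed between the genotypes, by limma's test of ptac3 minus Col-0 on the log2 scale. The difference was -1.01 for trnQ, -0.703 for trnT and -0.702 for trnM. Over the 21 alternatives with a value, the difference was called in 17 for trnQ, with adjusted p up to 0.074, in 20 for trnT, with adjusted p up to 0.054, and in 15 for trnM, with adjusted p up to 0.078. It was below 0 in each of them. Without the third Col-0 IPOD library, whose labels disagree, the difference was -1.20 for trnQ and 7 genes were lower in ptac3. The highest adjusted p for trnQ, 0.074, came without the second Col-0 IPOD library.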

How the results depend on the processing

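The sign of each of the 12 called genes held under the alternatives tried, and the counts of calls moved. A fit of the Col-0 libraries alone moved the bins to 194 enriched and 191 depleted and the genes to 14 higher and 9 lower. Robust limma-trend gave 101 and 183 bins and 11 lower genes. Centred libraries gave 82 and 14 bins and 1 lower gene, and the second repeat copy gave 17 depleted bins. Bins of 100 bp gave 26 and 20, and bins of 200 bp gave 14 and 10. At an adjusted p under 0.01 there were 18 and 0 bins and 4 higher and 0 lower genes. Among genes of at least 300 bp there were 0 higher genes (3 at an unadjusted p under 0.05). Leaving out 1 of the 12 seedling libraries gave 6 to 84 enriched and 0 to 60 depleted bins, and 4 to 9 higher and 0 to 6 lower genes. The lowest counts of bins, 6 enriched and 0 depleted, came without the second Col-0 IPOD library. Leaving out 1 of the Col-0 libraries gave 0 to 7 lower genes for the genotype difference, and leaving out 1 of the ptac3 libraries, which was added after seeing the data, gave 1 to 8 lower and 0 to 1 higher. For these changes the cause was not tested.

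The replicate numbers were checked for pairing by correlating, over bins, the deviations of IPOD and input libraries from their group means. In Col-0 r was 0.26, 0.22 and 0.023 for equal numbers, and the third IPOD library had its highest r, 0.073, with the second input, so these numbers were not taken as pairs. In ptac3 r was 0.77, 0.23 and 0.75 for equal numbers and -0.76 to 0.18 for unequal ones, and each library had its highest r with its own number, so these were taken as pairs. A replicate block for ptac3 alone, added after seeing the data, gave 229 enriched and 267 depleted bins, 20 higher and 17 lower genes, and 12 lower and 2 higher genes for the genotype difference. A replicate block in both genotypes gave 284 enriched and 359 depleted bins, 22 higher and 15 lower genes, and 18 lower and 14 higher genes for the genotype difference. The planned correction for base composition was not run. Depth limits shallow bins: leaving out the 68 bins with an input under 20% of the mean gave 53 and 35.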
